A study of Rattus norvegicus with 10 samples.

Results

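The tissue transcriptome of rats given a saline placebo was compared, at 1 hour, with that of rats sampled before any therapy. The rats were female Wistar animals in which arthritis had been induced as a model of the human rheumatoid disease: immunisation with bovine type II collagen in Freund's adjuvant makes the joints inflamed. The tissue lay under the skin around the points used for acupuncture in the same study and included muscle. It was taken when animals were killed, so the groups were different rats, but the sources used here do not say whether the 2 libraries of a group came from separate rats. The group before therapy, RA_0, had the disease and received neither acupuncture nor placebo, and the placebo group, PLA_1h, received a peritoneal injection of sterile saline and was sampled at 1 hour. Each group held 2 libraries, and both groups carried the same arthritis, so neither is a healthy control. The tissue is described as dorsal and subcutaneous, and the stimulated points lay on the lower back and on the leg below the knee. The sample titles of both groups call it muscle tissue 1, a number that the sources used here do not explain. The sources used here do not give the ages, the time of day at sampling or which point each piece came from. Because PLA_1h differed from RA_0 in the injection, the handling and the time of sampling together, these cannot be told apart. Members of the comparison were all transcripts with at least 1 CPM (reads of the transcript per 1e+06 reads of the library after trimmed-mean scaling) in both libraries of RA_0 or in both libraries of PLA_1h. The rule kept 9890 of the 17221 transcripts in the table (57.4%), with 9762 gene symbols. Of these, 9274 met the minimum in both groups, 268 in RA_0 alone and 348 in PLA_1h alone.

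Skeletal muscle is built of slow fibres, which contract for long periods on oxidative metabolism, and fast fibres, which contract quickly and rely more on glycolysis, and each kind has its own myosins, troponins and calcium pump. Within hours muscle also adjusts its transcripts to circulating hormones. Glucocorticoids, released under stress and with a daily rhythm, switch on Fkbp5 and the metallothioneins, while fasting and fatty acids switch on Ucp3 and Pdk4. The circadian clock runs in muscle as a loop in which ARNTL (BMAL1) with CLOCK drives Per, Nr1d1 and Dbp, whose products close the loop, so that Arntl and Dbp peak at opposite times of day. Loss of nerve input or fibre repair brings back the fetal acetylcholine receptor, Ncam1 and the myogenic factors.

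The 4 libraries held between 5371687 and 8899521 reads assigned to transcripts, so that 1 CPM stood for 4.19 to 10.1 reads. All were dominated by muscle: 7 of the 8 muscle markers checked were in the table, and Acta1, skeletal muscle actin, reached 134964 and 68102 CPM in RA_0 and 37333 and 118115 CPM in PLA_1h. The creatine kinase Ckm followed the same order, with 56881 and 28464 CPM in RA_0 and 20830 and 51430 CPM in PLA_1h. RA_0 replicate 1 and PLA_1h replicate 2 were thus high and the other pair low, so the muscle gradient ran across both groups. The ribosomal RNA precursor Rn45s showed a like split, with 1.12% and 0.876% of reads in RA_0 and 0.306% and 1.43% in PLA_1h. Replicates correlated at Pearson's r = 0.961 in RA_0 and 0.957 in PLA_1h across 10259 transcripts, and pairs from different groups at 0.931 to 0.968. Genes are not independent replicates, and these values are a description only. In bulk tissue, fewer cells of a type and less RNA per cell cannot be told apart.

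No transcript passed an adjusted p under 0.05 between PLA_1h and RA_0 in limma on log2(CPM + 1), 0% of the 10259 transcripts tested. The smallest adjusted p was 0.454. The limma-voom and edgeR quasi-likelihood tests on the recovered reads also called 0, and DESeq2 called 11. Among these 11, Prrt4 and Sec1 reached 1 CPM in both libraries of PLA_1h but not of RA_0, so their calls are a description with no test. At an unadjusted p under 0.05 there were 266 transcripts (2.59% of those tested), of which 265 were members, 142 higher (1.38%) and the rest lower in PLA_1h (1.21%). The rule of the study was an unadjusted p under 0.05, a 2-fold difference and a mean of at least 1 CPM. The study used it with limma-voom, and here it was applied to limma on log2(CPM + 1). It was met by 171 transcripts (1.67%), with 102 higher (0.994%) and 69 lower (0.673%), and by 168 in the limma-voom alternative. Both PLA_1h libraries lay above both RA_0 libraries, or below both, for 3016 transcripts (29.4%), 1623 higher (15.8%) and 1393 lower (13.6%). These shares are the background for the counts without overlap in every gene list below. With 2 libraries against 2 the smallest p of a two-sided exact permutation test is 0.333, and separation is a description.

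Libraries of one group were about as far apart as libraries of different groups. Over the 9890 members the median absolute gap on the log2(CPM + 1) scale was 0.39 between the RA_0 replicates and 0.42 between the PLA_1h replicates. Between 1 library of RA_0 and 1 of PLA_1h it was 0.29 to 0.51, lowest for RA_0 replicate 1 with PLA_1h replicate 2 and highest for RA_0 replicate 1 with PLA_1h replicate 1. The replicates differed by at least 2-fold for 979 members in RA_0 and 1100 in PLA_1h, and libraries of different groups for 615 to 1912. The group means, which averaging brings closer, differed by that much for 346 members (3.5%). The median member difference was -0.01 and the central 90% ran from -0.65 to 0.71. The median standard error was 0.40 and the median 95% interval, without adjustment, reached 0.88 to either side. For a typical transcript a change of less than about that size was not detectable at this number of libraries. The adjusted test needed larger changes still, so the absence of calls does not exclude changes above that size.

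**Figure D1:**
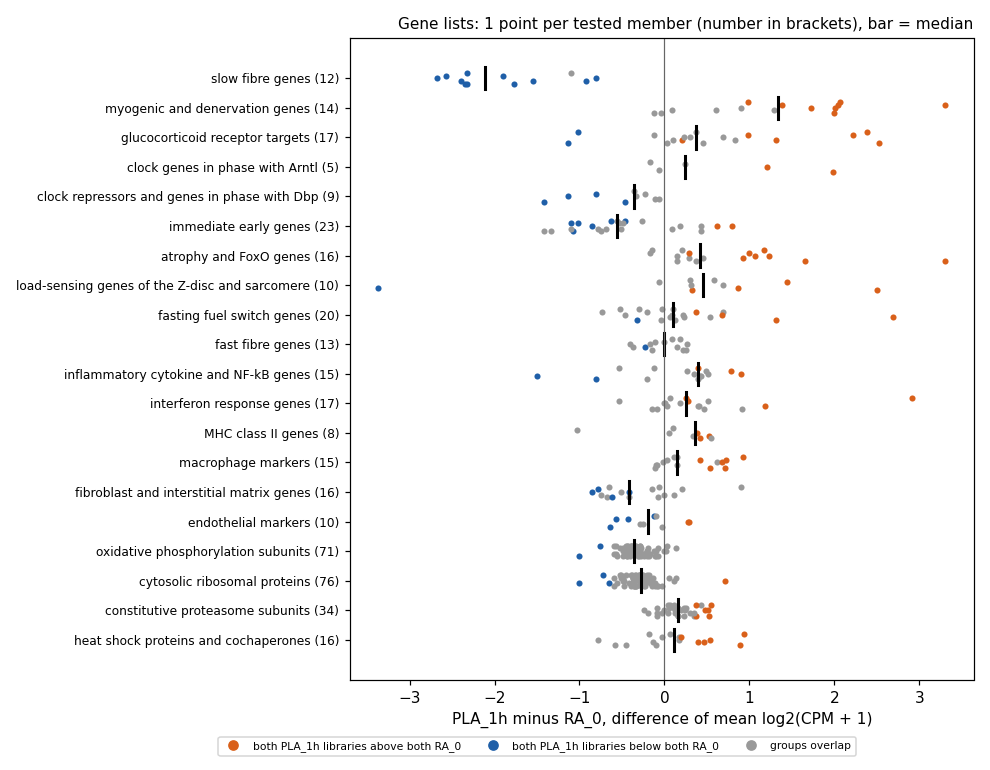
Difference between PLA_1h and RA_0 in mean log2(CPM + 1) for the tested members of 20 gene lists, 1 point per transcript, with the list median as a black bar. Slow fibre genes lie to the left of 0 with a median of -2.11, myogenic and denervation genes mostly to the right with a median of 1.33, and fast fibre genes sit around 0.

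Of the transcripts that met the rule of the study without overlap, the 10 with the smallest p among those higher in PLA_1h held stress, clock, fuel and repair genes. Arntl, the clock activator (rn4 chr1:171062181-171162426, plus strand), was at 2.62 and 3.86 CPM in RA_0 and 17.2 and 14.2 CPM in PLA_1h. The difference was 1.99 ± 0.33 on the log2 scale (SE, n = 2 per group; limma adjusted p = 0.454), with a clear gap between the groups. Ubd, which encodes the ubiquitin-like protein FAT10 (rn4 chr20:1475948-1477895, minus strand), was at 2.62 and 3.86 CPM in RA_0 and 28.6 and 32.8 CPM in PLA_1h. It differed by 2.91 ± 0.49, again with a limma adjusted p of 0.454.

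Fkbp5, the glucocorticoid-induced cochaperone of the glucocorticoid receptor (rn4 chr20:6637478-6722753), was at 21.5 and 21.7 CPM in RA_0 and 108 and 154 CPM in PLA_1h. Cdkn1a, the cell cycle inhibitor p21 (rn4 chr20:7376325-7386778), was at 20.3 and 81.4 CPM against 369 and 462 CPM. Ucp3, the uncoupling protein of muscle mitochondria (rn4 chr1:157896001-157909609), was at 36.3 and 103 CPM against 403 and 399 CPM. All 3 were higher in both placebo libraries, by 2.53 ± 0.50, 3.30 ± 0.68 and 2.69 ± 0.58 on the log2 scale, and none passed the adjustment (limma adjusted p of 0.95 and above). For Cdkn1a and Ucp3 the RA_0 libraries themselves lay far apart, replicate 1 below replicate 2.

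Dclk1, a microtubule-binding kinase (rn4 chr2:144678212-144687350), was at 2.62 and 10.1 CPM in RA_0 but at 531 and 41.2 CPM in PLA_1h, a difference of 4.56 ± 0.95. A longer Dclk1 transcript from the same start was at 0 and 2.52 CPM against 52.6 and 5.97 CPM, and reads that both share cannot be told apart. PLA_1h replicate 1 was by far the highest library, and without it the difference was 2.74. Without PLA_1h replicate 2 the difference was 6.39 and Dclk1 alone passed the adjustment (limma adjusted p = 0.0312). The neural cell adhesion molecule Ncam1 was at 16.9 and 21.2 CPM against 112 and 61.2 CPM.

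The remaining 3 of the 10, Prrt4, Sec1 and Krt18, met the minimum of 1 CPM only through PLA_1h, the group where they were high, so they had to differ and their values are a description with no test. Prrt4, a proline-rich transmembrane protein gene (rn4 chr4:56039955-56050415, minus strand), was at 0.477 and 1.63 CPM in RA_0 and at 14.9 and 45.8 CPM in PLA_1h. The fucosyltransferase gene Sec1, at 0 and 1.19 CPM in RA_0 (8 reads in all), was at 13.98 and 5.62 CPM. The epithelial keratin gene Krt18 rested on 3 reads in RA_0 and 59 in PLA_1h, a ratio of 13.6 with a counting interval of 4.44 to 67.9 (95%, exact binomial), which covers counting error only and not the choice of the gene. The same limit holds, among the genes described further on, for Chrng, Tmem8c, Nr4a3, Cd2 and Asns and for the longer Dclk1 transcript.

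The 10 transcripts with the smallest p among those lower in PLA_1h differed less in size, by 1.06 to 1.71 on the log2 scale, and mostly with close replicates. Cited4, a transcriptional coregulator that endurance exercise induces in heart, was at 42.0 and 27.2 CPM in RA_0 and 10.6 and 10.9 CPM in PLA_1h. Dgkz, the diacylglycerol kinase zeta gene, was at 91.1 and 89.3 CPM against 43.6 and 33.7 CPM. Aldh1a1, a retinaldehyde dehydrogenase, was at 231 and 217 CPM against 103 and 80.03 CPM. For all 3 the groups were well apart, with log2 differences of -1.57 ± 0.39, -1.21 ± 0.30 and -1.29 ± 0.38 (limma adjusted p = 1.00 for each).

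Nrep, a regulator of fibroblast and nerve repair, was at 83.7 and 78.4 CPM in RA_0 and 21.6 and 33.0 CPM in PLA_1h. Sec14l5 was at 26.2 and 23.2 CPM against 8.23 and 8.07 CPM, and the arachidonic acid epoxygenase Cyp2j4 at 16.5 and 22.4 CPM against 6.05 and 5.62 CPM. The kinase gene Sbk1, the secreted glycoprotein gene Stc2 and Lcat, the plasma cholesterol esterifying enzyme, completed the set with differences of -1.06, -1.16 and -1.17. Slc16a7, a monocarboxylate transporter gene, had 26 reads in RA_0 and 1 in PLA_1h, a ratio of RA_0 to PLA_1h of 37.6 with a 95% counting interval of 6.17 to 1540. It met the minimum only through RA_0, where it was high, so the ratio is a description with no test. The same holds, among the genes described further on, for Cxcl1, Hoxd10, Hoxb7, Lcn2 and RT1-N2.

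**Figure D2:**
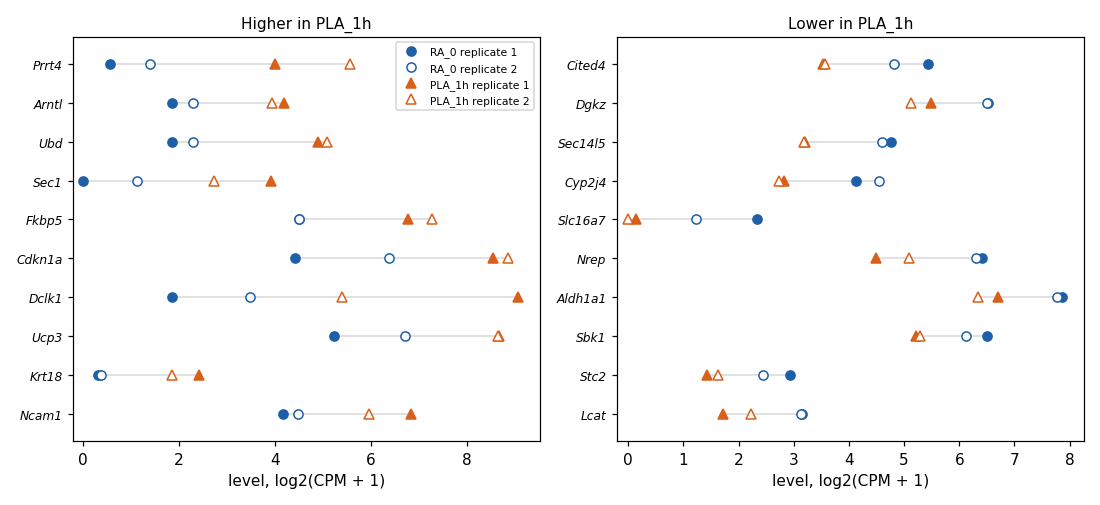
Levels in log2(CPM + 1) of the 10 transcripts with the smallest unadjusted p in each direction, for each of the 4 libraries (circles RA_0, triangles PLA_1h, filled replicate 1, open replicate 2). The groups do not overlap for any of the 20, which the rule for choosing them required, and the widest gap within a group is that of Dclk1, with 531 and 41.2 CPM in PLA_1h.

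Slow fibre genes stood lower in the placebo libraries. Of 12 tested, 11 were below both RA_0 libraries in both PLA_1h libraries (over all transcripts tested, 13.6% lay so), 3 had an unadjusted p under 0.05 and none passed the adjustment. The list median was -2.11, against -0.01 over all transcripts tested. Myl3, the slow and ventricular essential light chain, was at 5177 and 1756 CPM in RA_0 and 409 and 627 CPM in PLA_1h. Myl2, the slow regulatory light chain, was at 2232 and 873 CPM against 247 and 191 CPM. The transcript listed for Atp2a2, the slow calcium pump gene, was at 12.6 and 17.8 CPM against 5.65 and 1.76 CPM. It is a non-coding transcript record of that gene, so its value is not the level of the pump mRNA. The differences of Myl3, Myl2 and this transcript, which are the 3 at an unadjusted p under 0.05, were -2.57 ± 0.89, -2.68 ± 1.17 and -1.90 ± 0.77. Myh7, the slow myosin heavy chain, was at 7398 and 4565 CPM against 2235 and 579 CPM, and the slow troponin T Tnnt1 at 1874 and 1015 CPM against 500.2 and 136 CPM. Casq2, the calsequestrin of slow and cardiac muscle, was the only listed gene whose groups overlapped. The median stayed below 0 when each of the 4 libraries was left out, between -2.63 and -1.42.

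Fast fibre genes mostly overlapped between the groups. Of 13 tested, 12 overlapped between the groups, none had an unadjusted p under 0.05, and the median was 0.00. Myh2, the fast oxidative myosin heavy chain, was the exception, at 11133 and 11502 CPM in RA_0 and 9625 and 9713 CPM in PLA_1h. The fast troponin genes Tnnt3, Tnni2 and Tnnc2 followed the muscle gradient that crossed the groups, high in RA_0 replicate 1 and PLA_1h replicate 2.

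A ratio taken within a library does not depend on how much muscle the piece held. The share of Myh7 among the reads of the adult myosin heavy chains Myh1, Myh2, Myh4 and Myh7, computed after the values were seen, was 8.50% (95% Wilson interval 8.41 to 8.59) and 6.99% (6.91 to 7.06) in RA_0. In PLA_1h it was 3.42% (3.38 to 3.46) and 0.542% (0.524 to 0.561). The intervals cover counting error only, and myosin genes are close copies between which reads can be split. The share spanned a wider range over the rest of the series: the PLA_34d libraries, from rats on placebo for longer, were at 21.6% and 0.589%, and the AP_1h libraries, from rats given acupuncture and sampled at 1 hour, at 0.815% and 0.457%. The values of PLA_1h and RA_0 thus lay between those of the PLA_34d libraries, but for the second PLA_1h library, which was just below them. Which of the points each piece of tissue came from was not given in the sources used here, and its part in the fibre composition was not tested.

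**Figure D3:**
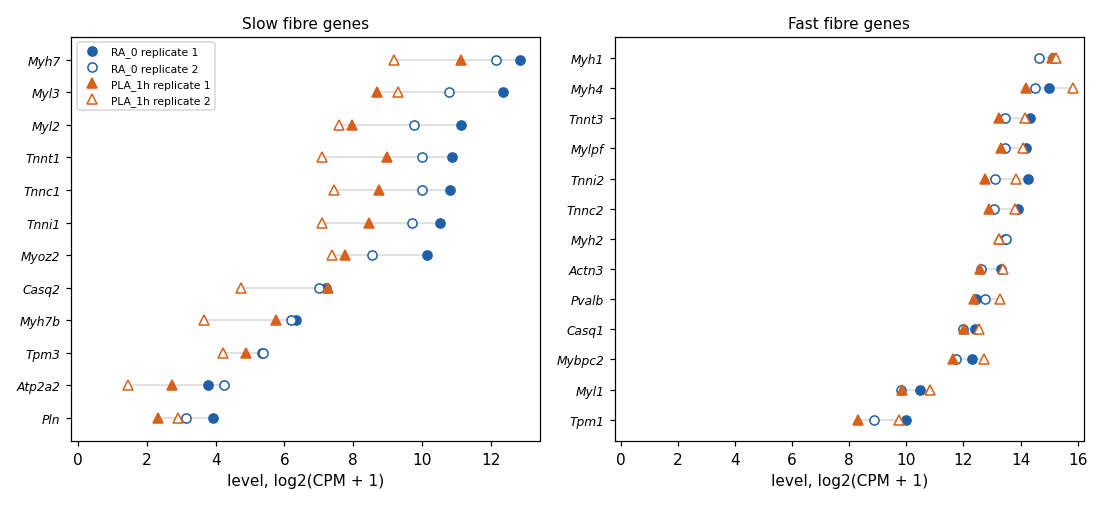
Levels in log2(CPM + 1) of the tested slow (left) and fast (right) fibre genes in each library, ordered by their RA_0 mean (circles RA_0, triangles PLA_1h, filled replicate 1, open replicate 2). For 11 of 12 slow genes both triangles lie left of both circles, while for 12 of 13 fast genes the groups overlap.

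Genes of fibre repair and lost nerve contact stood higher in the placebo libraries, most of all in PLA_1h replicate 1. Of 14 tested myogenic and denervation genes, 8 were above both RA_0 libraries in both PLA_1h libraries (over all transcripts tested, 15.8%) and none lay below. At an unadjusted p under 0.05, 6 were higher (over all transcripts tested, 1.38%). Both counts include Chrng, which met the minimum of 1 CPM only through PLA_1h, so its part in them is a description with no test. The median was 1.33. Chrna1, the alpha subunit of the muscle acetylcholine receptor, was at 18.4 and 22.4 CPM in RA_0 and 192 and 37.0 CPM in PLA_1h. Chrng, the fetal gamma subunit, was at 1.19 and 0.743 CPM against 24.2 and 1.58 CPM. Runx1, a transcription factor of denervated muscle, was at 4.77 and 3.27 CPM against 30.2 and 11.6 CPM. The differences were 2.01 ± 0.69, 2.04 ± 0.81 and 2.00 ± 0.78. Gadd45a, a stress and denervation gene, was at 38.9 and 87.9 CPM against 355 and 107 CPM.

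In each of these genes PLA_1h replicate 1 was above its partner, and for Chrng, Chrna1 and Gadd45a the second placebo library lay just above RA_0. The list median was 0.58 without PLA_1h replicate 1 and 2.22 without PLA_1h replicate 2. Of the myogenic factors, Myog, which drives myoblast differentiation, was at 30.1 and 45.9 CPM in RA_0 and 179 and 54.1 CPM in PLA_1h, and Myf6 at 179 and 144 CPM against 407 and 249 CPM. The developmental myosins Myh3 and Myh8 overlapped between the groups. The myoblast fusion gene Tmem8c (myomaker), picked after its values were seen, was at 1.19 and 0.594 CPM against 20.02 and 2.98 CPM.

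Microtubule genes were followed up because of Dclk1, after the values were seen. Of 30 tested, 5 were higher at an unadjusted p under 0.05 (1.38% of all transcripts tested), Dclk1 itself among them, and none lower. The list median was 0.04 and 18 members overlapped. Tubb6, a beta tubulin, was at 20.8 and 18.7 CPM in RA_0 and 103 and 63.9 CPM in PLA_1h. The microtubule-associated protein gene Map1b was at 26.2 and 44.0 CPM against 113 and 82.8 CPM, and Map1a at 105 and 123.1 CPM against 222 and 335 CPM. The kinesin gene Kif3c was at 6.20 and 10.2 CPM against 27.7 and 22.6 CPM. These 4 were found by looking at the values, and their differences ran from 1.25 to 1.99.

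Promoter sequence is shown for the receptor subunits, since Chrna1 and Chrng stood higher together and myogenic factors bind the E-box CAGCTG. The stretches are the 100 bases before the RefSeq transcription start (build GRCr8), 5′ to 3′, with CAGCTG, which reads the same on both strands, in capitals. Chrna1 lies at chr3:78877354-78877453 on the minus strand and Chrng at chr9:95325884-95325983 on the plus strand.
Chrna1: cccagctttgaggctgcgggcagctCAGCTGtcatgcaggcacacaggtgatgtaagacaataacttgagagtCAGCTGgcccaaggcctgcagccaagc
Chrng: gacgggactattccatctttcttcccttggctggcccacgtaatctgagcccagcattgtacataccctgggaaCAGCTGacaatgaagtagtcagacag
In Chrna1 the matches began 75 and 27 bases before the start and in Chrng the match began 26 bases before it. Of the 33469 promoter windows of 250 bases in the RefSeq set, 4007 held at least 1 match and 1.04% at least 2. A match is a description of these letters and not of binding.

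**Figure D4:**
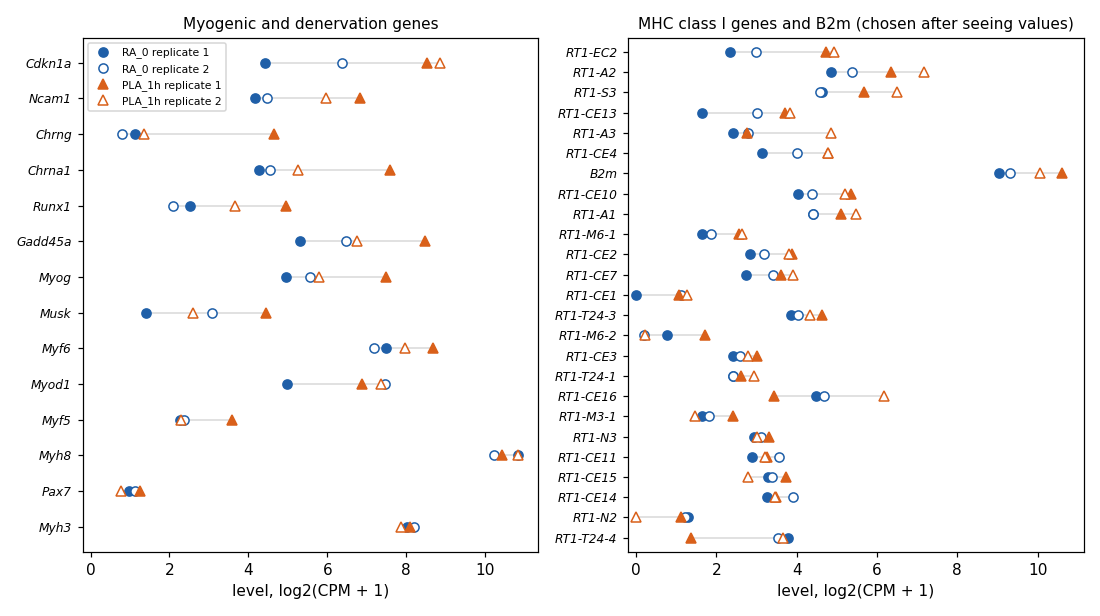
Levels in log2(CPM + 1) of the myogenic and denervation genes (left) and of the MHC class I genes with B2m (right) in each library, ordered by their difference (circles RA_0, triangles PLA_1h, filled replicate 1, open replicate 2). On the left, PLA_1h replicate 1 stands far to the right for Chrng (24.2 CPM) and Chrna1 (192 CPM), and on the right both triangles lie beyond both circles for B2m and for the 4 RT1 genes with the largest differences, while RT1-A3, the next in order, overlaps.

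Of the clock genes, Arntl and Clock stood higher and Dbp and Per1 lower in the placebo libraries. Of the 5 tested genes in phase with Arntl, Arntl and Clock were above RA_0 in both placebo libraries and had an unadjusted p under 0.05. Clock, the partner of ARNTL, was at 4.53 and 2.38 CPM in RA_0 and 11.9 and 6.67 CPM in PLA_1h, a difference of 1.202 ± 0.54. The remaining members overlapped: Npas2, a Clock relative, at 1.91 and 2.67 CPM against 5.35 and 0.526 CPM, the repressor Nfil3 at 21.2 and 17.5 CPM against 19.8 and 26.8 CPM, and Cry1 at 14.3 and 19.5 CPM against 11.9 and 18.1 CPM. The list median was 0.25.

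All 9 tested genes of the opposite phase had a difference below 0, with a median of -0.36, and 4 lay below RA_0 without overlap (13.6% of all transcripts tested). Dbp, an output activator that ARNTL and CLOCK drive directly, was at 426 and 418 CPM in RA_0 and 137 and 181 CPM in PLA_1h. Per1, a core repressor that glucocorticoids also induce, was at 116 and 140 CPM against 48.3 and 68.6 CPM. These differed by -1.42 ± 0.46 and -1.13 ± 0.48. Per2 was at 57.7 and 88.4 CPM against 36.2 and 45.5 CPM, and the haem receptor Nr1d1 (REV-ERBα) at 33.2 and 29.6 CPM against 23.2 and 21.6 CPM. Per3, Tef, Bhlhe40, Cry2 and Usp2 overlapped, with differences from -0.36 to -0.06. Hlf, Nr1d2, Bhlhe41 and Ciart were not analysed here.

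The Arntl promoter carries a core of the element that the REV-ERB repressors and ROR activators read. The stretch is the 80 bases before the RefSeq start of Arntl (listed as Bmal1), at chr1:176766248-176766327 on the plus strand of GRCr8, with the core AGGTCA in capitals.
Arntl: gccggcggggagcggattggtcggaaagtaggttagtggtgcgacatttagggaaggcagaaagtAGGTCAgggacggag
The core began 15 bases before the start, and AGGTCA on either strand was in 14.1% of the 33469 windows of 250 bases. Of 14 tested clock genes 13 had a window, and the core was also in that of Usp2, a gene of the opposite phase. The E-box CACGTG, found in 5.59% of windows, was in those of Tef, Nr1d1 and Bhlhe40, and the D-box TTATGTAA, found in 0.828%, in that of Per2.

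Glucocorticoid receptor targets lay in both directions, more of them higher. Of 17 tested, 6 lay above RA_0 in both placebo libraries (15.8% of all transcripts tested) and 2 below (13.6%). At an unadjusted p under 0.05 there were 4 higher (1.38%) and 1 lower (1.21%), and the median was 0.37. Next to Fkbp5, the metallothioneins, which bind zinc and copper, stood highest: Mt1a was at 4.77 and 17.5 CPM in RA_0 and 68.5 and 32.3 CPM in PLA_1h, and Mt2A at 6.92 and 22.3 CPM against 80.2 and 61.2 CPM. The differences were 2.22 ± 0.94 and 2.39 ± 0.91. Zbtb16, a transcription factor induced by the receptor, was at 11.9 and 14.7 CPM against 39.6 and 18.4 CPM. Pdk4, the kinase that shuts pyruvate dehydrogenase, was at 119 and 319 CPM against 526 and 443 CPM. Tsc22d3 (GILZ), another classical target, was at 292 and 307 CPM against 357 and 338 CPM, a difference of 0.21. Per1 was the member lower at an unadjusted p under 0.05, and Dusp1, a phosphatase gene that is also an immediate early gene, was lower without overlap, at 225 and 490 CPM against 173 and 155 CPM.

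**Figure D5:**
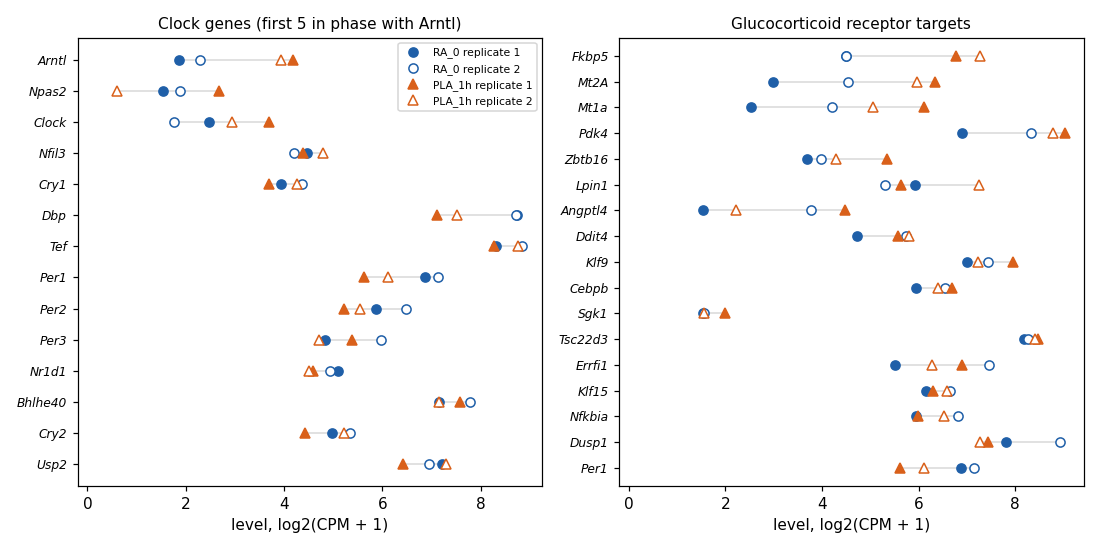
Levels in log2(CPM + 1) of the tested clock genes (left, the top 5 in phase with Arntl) and glucocorticoid receptor targets (right, ordered by their difference) in each library (circles RA_0, triangles PLA_1h, filled replicate 1, open replicate 2). Arntl and Fkbp5 stand to the right and Dbp and Per1 to the left in both placebo libraries, with most of the remaining genes overlapping.

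The metallothionein promoters are shown because both genes stood higher together, and with their matches already known. The cores TGCACNC and TGCGCNC, in which N is any base, are in capitals on either strand, in the 190 bases before the start of Mt1a (listed as Mt1, chr19:10832976-10833165, minus strand) and the 230 bases before that of Mt2A (chr19:10838709-10838938, minus strand), both from RefSeq on GRCr8.
Mt1a: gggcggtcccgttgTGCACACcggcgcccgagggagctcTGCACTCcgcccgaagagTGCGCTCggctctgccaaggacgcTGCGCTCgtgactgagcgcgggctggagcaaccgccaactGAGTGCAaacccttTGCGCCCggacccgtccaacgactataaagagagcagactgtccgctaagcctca
Mt2A: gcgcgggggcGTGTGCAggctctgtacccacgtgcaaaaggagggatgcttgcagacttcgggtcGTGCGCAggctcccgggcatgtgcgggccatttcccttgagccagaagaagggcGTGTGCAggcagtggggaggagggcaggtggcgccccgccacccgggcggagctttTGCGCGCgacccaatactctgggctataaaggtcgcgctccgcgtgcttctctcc
Mt1a held 6 matches and Mt2A 4. Of all 33469 windows, 20.6% held at least 1 match, 0.266% at least 4 and 0.0269% at least 6. These shares are background only, since these promoters were picked with the matches in view. The other Nrf2 target genes listed with the metallothioneins gave no further unadjusted p under 0.05, and the median of the 12 tested was 0.21.

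Immediate early genes, which respond to stimuli within minutes to an hour, were not higher as a group. Of 23 tested, none had an unadjusted p under 0.05, and the median was -0.55. Above RA_0 without overlap lay 2 (15.8% of all transcripts tested) and below 6 (13.6%), in sum not far from the 29.4% over all transcripts tested. Fos was at 21.7 and 123.4 CPM in RA_0 and 40.0 and 9.83 CPM in PLA_1h, Egr1 at 63.5 and 222 CPM against 85.6 and 22.3 CPM, and Junb at 53.7 and 176 CPM against 126 and 35.3 CPM. In all 3 the replicates of a group were further apart than the groups, with RA_0 replicate 2 the highest library. Nr4a1, an orphan receptor gene, was at 438 and 473 CPM against 159 and 293 CPM, Ier3 at 40.1 and 72.3 CPM against 31.6 and 19.1 CPM, and Ier2 at 50.6 and 80.2 CPM against 48.4 and 25.1 CPM. With Jund, Klf2 and Dusp1 they made up the 6 below RA_0. Nr4a3 and Maff were above RA_0 without overlap, at 3.17 and 1.40 CPM and at 20.9 and 8.77 CPM in PLA_1h. The remaining tested members, Fosl1, Jun, Egr2, Atf3, Nr4a2, Btg2, Klf4, Klf6, Myc, Zfp36, Cyr61 and Ctgf, overlapped. Without RA_0 replicate 2 the list median was -0.10.

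Atrophy and FoxO genes were more often above than below RA_0. Of 16 tested, 8 lay above RA_0 without overlap (15.8% of all transcripts tested) and none below, and the median was 0.42. At an unadjusted p under 0.05, 3 were higher (1.38% of all transcripts tested). Cdkn1a is among these and is also counted in the myogenic and denervation list, so the 2 lists are not independent. Fbxo32 (atrogin-1), a muscle ubiquitin ligase, was at 21.2 and 33.1 CPM in RA_0 and 78.9 and 93.0 CPM in PLA_1h, a difference of 1.65 ± 0.66. Fbxo31 was at 8.35 and 5.79 CPM against 12.1 and 18.3 CPM, and the protease gene Ctsl1 at 148 and 176 CPM against 348 and 412 CPM. The transcription factor gene Foxo1 was at 8.59 and 10.5 CPM against 41.4 and 12.3 CPM, with PLA_1h replicate 1 again the highest.

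Genes that sense load in the sarcomere lay in opposite directions. Ankrd1, induced by stretch and injury, was at 23.4 and 190 CPM in RA_0 and 463 and 323 CPM in PLA_1h, a difference of 2.51 ± 0.96. Its relative Ankrd2, which is abundant in slow fibres, was at 350 and 25.7 CPM against 7.53 and 9.30 CPM, a difference of -3.37 ± 1.43. The gap between the RA_0 libraries was wide for both genes. Xirp2 was at 2071 and 3426 CPM against 9644 and 5403 CPM, and the TWEAK receptor gene Tnfrsf12a at 10.7 and 9.95 CPM against 16.9 and 23.0 CPM. Of 10 tested, 4 were above (15.8% of all transcripts tested) and 1 below (13.6%) without overlap, with a median of 0.45.

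Among fuel genes, the difference was held by few members. Of 20 tested fasting genes 4 lay above RA_0 without overlap (15.8% of all transcripts tested) and 1 below (13.6%). Only Ucp3 had an unadjusted p under 0.05, and the median was 0.10. Acot1, an acyl-CoA thioesterase gene, was at 1.43 and 2.67 CPM in RA_0 and 4.46 and 3.16 CPM in PLA_1h, and Acot2 at 22.9 and 33.4 CPM against 38.5 and 34.0 CPM. Cpt1b, the carnitine palmitoyltransferase of muscle, was lower without overlap, at 534 and 452 CPM against 364 and 426 CPM. G0s2, an inhibitor of fat breakdown, was counted with the adipocyte genes and not with the 20 fasting genes. Its levels were 17.4 and 35.6 CPM against 46.0 and 57.0 CPM, a difference of 1.01 ± 0.38.

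Cited4 came from a list of mitochondrial biogenesis and exercise genes whose members lay on both sides of 0, with a median of -0.02 over 10 tested. Below RA_0 without overlap lay 3 (13.6% of all transcripts tested), and 1 lay above. Its relative Cited2 was at 177 and 290 CPM in RA_0 and 134 and 152 CPM in PLA_1h, a difference of -0.67 ± 0.31. Of 71 oxidative phosphorylation subunits, 2 lay below RA_0 without overlap (13.6% of all transcripts tested) and none above (15.8%). Their median of -0.36 was 0.20 without RA_0 replicate 1 and -0.91 without RA_0 replicate 2. The 76 cytosolic ribosomal protein genes had a median of -0.28, which likewise was 0.15 without RA_0 replicate 1. Neither list had a member at an unadjusted p under 0.05. For 34 proteasome subunits the median was 0.16, and it was -0.15 without RA_0 replicate 2. Without overlap, 6 lay above (15.8% of all transcripts tested) and none below (13.6%).

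Protein-folding and stress lists gave no member at an unadjusted p under 0.05. Of 16 heat shock proteins and cochaperones, 6 lay above RA_0 without overlap (15.8% of all transcripts tested) and none below (13.6%), with a median of 0.12. The inducible Hspa1a was at 0 in all 4 libraries. That means no read was assigned to it, and absence of the transcript was not tested. Hspb8, a small heat shock protein gene of muscle, was at 584 and 641 CPM in RA_0 and 1181 and 1167 CPM in PLA_1h, and Hsp90aa1 at 38.7 and 46.3 CPM against 107 and 57.9 CPM. The integrated stress response held 2 above and 2 below of 11 tested (15.8% and 13.6% of all transcripts tested). Its median was 0.27, with 7 differences above 0 and 4 below. Asns, above, was at 0.954 and 1.34 CPM against 2.08 and 1.58 CPM, a member only through PLA_1h. Mthfd2, also above, was at 0.239 and 0.743 CPM against 2.18 and 0.877 CPM and met the minimum in neither group. Both are a description with no test. Below lay Chac1, a glutathione-degrading enzyme gene, at 113 and 76.5 CPM against 35.4 and 48.3 CPM. The endoplasmic reticulum chaperones had a median of 0.14 and the 11 tested hypoxia genes one of 0.15. Glycolysis and glycogen enzymes had 3 of 19 above without overlap (15.8% of all transcripts tested) and none below, with a median of -0.23.

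MHC class I genes, whose products show peptides from inside the cell to T cells, stood higher in the placebo libraries. They were noticed in the list of transcripts with small p and were put together after the values were seen, so their counts are a description. Of 25 tested, counting the light chain gene B2m, 14 lay above RA_0 without overlap (15.8% of all transcripts tested) and 1 below (13.6%). At an unadjusted p under 0.05, 8 were higher (1.38%), and the median was 0.60. The 1 below, RT1-N2, was at 1.43 and 1.34 CPM in RA_0 and 1.19 and 0 CPM in PLA_1h. It met the minimum only through RA_0, where it was high. B2m was at 526 and 640.0 CPM in RA_0 and 1565 and 1067 CPM in PLA_1h, a difference of 1.15 ± 0.45. RT1-EC2 was at 4.06 and 6.98 CPM against 25.6 and 29.3 CPM, and RT1-A2 at 28.2 and 40.8 CPM against 81.2 and 144 CPM. RT1-S3 was at 23.6 and 22.9 CPM against 50.3 and 89.2 CPM. The RT1 genes are close copies and differ between strains, so reads can be split among them or be lost, and single RT1 values are uncertain. B2m is a single gene and carries no such limit. Over the scaling alternatives the list median stayed between 0.55 and 0.72.

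The interferon response genes, which are commonly induced with class I, mostly overlapped between the groups. Of 17 tested, 13 had a difference above 0 and 4 below, and the median was 0.25. Only Ubd had an unadjusted p under 0.05, and 4 lay above RA_0 without overlap (15.8% of all transcripts tested) and none below. Rsad2 (viperin) was at 1.91 and 2.23 CPM in RA_0 and 11.7 and 2.81 CPM in PLA_1h. The class I peptide transporter Tap1 was at 10.3 and 9.51 CPM against 12.6 and 11.8 CPM, and Oas1a at 5.49 and 3.71 CPM against 5.55 and 5.62 CPM. MHC class II genes had a median of 0.36 over 8 tested, 3 above without overlap (15.8% of all transcripts tested). Cd74, the invariant chain, was at 126 and 100.1 CPM against 153 and 148 CPM.

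Inflammatory genes had no common direction. Of 15 tested cytokine and NF-κB genes, 3 lay above (15.8% of all transcripts tested) and 2 below (13.6%) without overlap. The neutrophil chemokine gene Cxcl1 was at 2.62 and 5.94 CPM in RA_0 and 1.69 and 0.176 CPM in PLA_1h, a difference of -1.497 ± 0.65. Osmr, a receptor subunit for oncostatin M, was at 2.86 and 5.20 CPM against 11.7 and 5.62 CPM, and Nfkb2 at 22.4 and 23.5 CPM against 24.0 and 66.5 CPM. The list median of 0.40 was -0.12 without RA_0 replicate 1 and -0.03 without PLA_1h replicate 1.

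Markers of other cell types were mostly at low levels or overlapped. Of 15 macrophage markers, 6 lay above RA_0 without overlap (15.8% of all transcripts tested) and none below (13.6%). Their median was 0.15, with summed levels of 146 and 138 CPM in RA_0 and 195 and 150.2 CPM in PLA_1h. Ctss, a lysosomal protease, was at 8.11 and 8.91 CPM against 20.5 and 14.04 CPM, and the mannose receptor gene Mrc1 at 6.92 and 10.7 CPM against 20.6 and 10.7 CPM. Of 13 T cell and cytotoxic markers 7 were tested, Ptprc was at 0 in all 4 libraries and Cd3d and Cd247 were at 0 in some. A value of 0 means that no read was assigned, and absence of the transcript or of the cells was not tested. Cst7, the cathepsin inhibitor cystatin F, was the only one at an unadjusted p under 0.05, at 5.01 and 13.96 CPM against 81.4 and 23.2 CPM, a difference of 2.23 ± 0.57, while Cd2, a T cell surface protein gene, was at 0.716 and 0.297 CPM against 1.88 and 1.40 CPM. Red blood cell genes had a median of -0.08 over 6 tested, and none lay apart. The part of other cell types in the results was not tested.

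Other cell types gave no member at an unadjusted p under 0.05 in the neutrophil, B cell, mast cell, Schwann cell and keratinocyte lists. The summed neutrophil markers were at 9.54 and 9.65 CPM in RA_0 and 12.3 and 17.02 CPM in PLA_1h, with Elane and Np4 at 0 in all 4 libraries. Of 3 tested neutrophil markers, 2 lay above RA_0 without overlap and 1 below. S100a9, a calcium-binding protein gene of granulocytes, was above, at 4.53 and 4.16 CPM against 6.74 and 11.4 CPM. Lcn2 was below, at 2.39 and 1.49 CPM against 0.793 and 0.526 CPM, a difference of -0.81. Mast cell markers summed to 20.04 and 13.8 CPM against 6.54 and 11.1 CPM, and the mast cell chymase gene Cma1 was at 5.73 and 3.27 CPM against 1.49 and 1.75 CPM. Keratinocyte markers stayed between 2.87 and 4.77 CPM in sum, with Krt14, Krt15 and Tp63 at 0 in all 4. B cell markers summed to 3.16 to 4.56 CPM. Schwann cell markers, at 199 and 607 CPM in RA_0 and 406 and 173 CPM in PLA_1h, and adipocyte genes, at 370 and 582 CPM against 922 and 483 CPM, overlapped between the groups in their sums. Of 8 tested Schwann cell markers 2, Sox10 and Cnp, lay below RA_0 without overlap (13.6% of all transcripts tested). Of 12 tested adipocyte genes G0s2 lay above, the only one at an unadjusted p under 0.05, and Dgat2 and Aqp7 below. Scd1, a fatty acid desaturase gene chosen after its values were seen, had the largest adipocyte difference (2.63) with overlap, at 1.91 and 76.04 CPM against 466 and 17.4 CPM.

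Most fibroblast and matrix genes overlapped between the groups. Of 16 fibroblast and matrix genes, 4 lay below RA_0 without overlap and none above, a share under the 29.4% over all transcripts tested, with a median of -0.42, which turned to 0.26 without RA_0 replicate 2. Sparc was at 879 and 1159 CPM in RA_0 and 370.2 and 838 CPM in PLA_1h, and Col5a1 at 20.8 and 37.6 CPM against 15.96 and 15.8 CPM. In the tendon list, of which 7 were tested, Cilp, a secreted cartilage and tendon matrix protein gene, was at 37.7 and 70.3 CPM against 103 and 144 CPM, a difference of 1.23 ± 0.43, and the list median was -0.20. Of 10 endothelial markers 4 lay below (13.6% of all transcripts tested) and 2 above (15.8%) without overlap, with a median of -0.19. Hoxd10, which marks posterior body position, was at 5.01 and 2.67 CPM against 1.69 and 0.351 CPM, and Tbx15, a factor of fast fibres and trunk skin, at 89.2 and 127 CPM against 222 and 227 CPM. They differed by -1.30 ± 0.48 and 1.07 ± 0.36. Of 5 tested posterior positional genes, Hoxd10 lay below RA_0 without overlap (13.6% of all transcripts tested). Hoxa9 lay above (15.8%), at 1.91 and 3.12 CPM against 3.67 and 5.09 CPM, and the median was -0.69. Of 4 tested anterior and trunk genes, Tbx15 alone had a difference above 0. Below RA_0 without overlap lay 2, Hoxc5 and Hoxb7, the latter a member only through RA_0, and the median was -0.50.

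The same genes are given for other groups next to RA_0, which those comparisons share. AP_1h held rats given acupuncture at 1 hour, PLA_34d those on placebo and AP_34d those on acupuncture at the later time. Fkbp5 was at 239 and 149 CPM in AP_1h and 36.9 and 40.9 CPM in PLA_34d. Arntl was at 22.6 and 24.9 CPM in AP_1h and 7.07 and 5.69 CPM in PLA_34d, and Ucp3 at 858 and 1008 CPM and at 28.3 and 69.7 CPM. In AP_34d Fkbp5 was at 229 and 68.3 CPM, Arntl at 24.8 and 17.5 CPM and Ucp3 at 1177 and 528 CPM. These genes sat on the side of PLA_1h in AP_1h and AP_34d and nearer to RA_0 in PLA_34d. Prrt4, in contrast, was at 1.08 and 3.08 CPM in AP_1h, and Dgkz at 82.4 and 77.7 CPM. The difference between AP_1h and PLA_1h did not pass the adjustment for either (limma adjusted p = 0.299 for Prrt4, a log2 difference of -3.23). Ubd was at 16.4 and 13.7 CPM in AP_1h and 23.7 and 25.4 CPM in PLA_34d, above both RA_0 libraries in these groups. In AP_34d it was at 8.20 and 1.79 CPM, on either side of both RA_0 libraries.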

How the data were processed

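Poly(A) RNA was sequenced from 10 libraries in 5 groups of 2, and the 4 libraries of RA_0 and PLA_1h were compared. Per the submitters' processing notes, the authors used CASAVA 1.8.2, cutadapt 1.2.1, Bowtie2 2.1.0, HTSeq 0.5.4p3 and edgeR 3.4.2, with UCSC rn4 transcripts. The kit does not mark strand. The deposited expression signal is CPM per transcript, which the authors scaled with TMM factors before they deposited it. They were whole multiples of 1 read for 100% of values (tolerance 0.01 reads), so reads were recovered and used for the voom, edgeR and DESeq2 alternatives only.

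The main test was limma 3.58.1 on log2(CPM + 1) with a mean trend, over all 10 libraries and the 10259 transcripts at 1 CPM or more in each library of any group, with Benjamini-Hochberg adjustment. The pseudocount of 1 understates differences of low transcripts. The groups share 1 estimate of the spread (5 residual degrees of freedom). edgeR 4.0.16, DESeq2 1.42.0, R 4.3.3 and Python 3.11.15 were used, and the test was checked on simulated data. Read totals were 5371687 to 8899521, so 3 reads were 0.297 to 0.716 CPM, which covers counting error only. Nothing in the sources used here says that replicates came from separate rats, so p-values measure only the spread between these libraries, which may be technical. Replicate numbers did not pair the libraries.

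The comparison, gene lists and rules were chosen with earlier results of these data known. Transcripts were named where they were among the 10 smallest p in each direction under the rule of the study without overlap, list members at an unadjusted p under 0.05 or among the 4 largest without overlap, or tested clock and immediate early genes. Per symbol the transcript with the highest mean CPM stood for the gene. The MHC class I and microtubule lists, Tmem8c, Tsc22d3, Casq2, Myog, Myf6, Myh3, Myh8, the fast troponins, Hspa1a and the myosin share were added after the values were seen. Of the members, 745 overlap another gene and their reads cannot be told apart without strand. RefSeq promoter windows (GRCr8) matched 128 of 171 named transcripts. Coordinates of genes are rn4, as deposited.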

Additional observations from a re-analysis of the deposited data

Results flagged for a closer look

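In the named transcripts, 3 stood on opposite sides of both RA_0 libraries in the placebo and acupuncture libraries at 1 hour. Hoxd10 had a log2 difference between PLA_1h and RA_0 of -1.30, with 6.81 and 9.24 CPM in AP_1h. Col3a1 had -0.41, with 388 and 313 CPM in PLA_1h and 1178 and 746 CPM in AP_1h. Gsr had 0.49, with 37.7 and 38.3 CPM in PLA_1h and 23.5 and 14.1 CPM in AP_1h. None of these differences between AP_1h and PLA_1h passed the adjustment (limma adjusted p = 0.481, 0.912 and 0.851 in that order), and the smallest adjusted p over the 171 named transcripts was 0.299.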

How the results depend on the processing

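The count of 0 called transcripts held under all alternatives but DESeq2 (11 called: Arntl, Cdkn1a, Cst7, Dclk1, Fkbp5, Ncam1, Ppp1r14c, Prrt4, Sec1, Ubd and Ucp3, all higher) and the fit without PLA_1h replicate 2 (1, Dclk1), so leaving out 1 library gave 0 to 1. The 266 transcripts at an unadjusted p under 0.05 became 406 with the 4 compared libraries alone and 136 with scaling to library totals, an alternative added after seeing the data, and 131 to 371 with 1 library left out (131 without RA_0 replicate 1, 176 without PLA_1h replicate 1). The 171 meeting the rule of the study became 89 with a pseudocount of 4, 258 with the 4 libraries alone, 111 with library totals and 119 to 343 with 1 library left out (343 without RA_0 replicate 2, 283 without PLA_1h replicate 2). The 3016 without overlap became 3016 to 7417 with 1 library left out, since fewer libraries have to lie apart. The share of higher among the 266 was 53.4%, and 64% with the 20 most abundant transcripts left out and 62.5% with library totals. The replicate block gave 0 called, 258 at an unadjusted p under 0.05 and 191 by the rule of the study, and with the PLA_1h numbers crossed 0, 321 and 197. Same-numbered libraries of RA_0 and PLA_1h deviated in opposite ways (r = -0.464), so the numbers were not read as a pairing. Prrt4 and Sec1, among the 11 that DESeq2 called, met the minimum of 1 CPM only through PLA_1h, so their calls are a description with no test.

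Of 171 named transcripts 17 reversed under some alternative, with differences between -1.10 and 0.43. Npas2 (-0.07) was 0.051 with a pseudocount of 4, 0.39 in edgeR, 0.35 in DESeq2, 0.023 with library totals and -1.10 to 0.96 with 1 library left out. Cyr61 (0.43) was -0.012 in edgeR and -0.027 in DESeq2. With Rn45s as a covariate Klf6 was -0.25 and Slc2a1 -0.038. With 1 library left out, the values ran from -0.43 to 0.21 for Bhlhe40, -1.07 to 0.089 for Btg2, -0.46 to 0.11 for Cry1, -0.74 to 0.058 for Cry2, -0.73 to 1.60 for Cyr61, -1.78 to 0.40 for Egr2, -0.15 to 0.51 for Jun, -1.44 to 0.37 for Junb, -0.50 to 0.67 for Klf6, -0.35 to 1.21 for Myc, -2.23 to 0.026 for Nr4a2, -0.92 to 0.21 for Per3, -0.32 to 0.19 for Tef, -0.67 to 0.21 for Usp2 and -1.02 to 0.49 for Zfp36. Of 44 list medians, 25 changed sign under some alternative, 24 of them when 1 of the 4 compared libraries was left out. Over those 4, the slow fibre, denervation, glucocorticoid, atrophy and both clock medians kept their sign. Depth limits transcripts near 1 CPM, which is 4.19 to 10.1 reads.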
